A study of Mus musculus with 5 samples.

Results

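Intergenic H3K27ac peaks near genes were examined in mouse bone marrow cells labelled as Mll3/4 deleted. A peak was included if it lay on chromosomes 1 to 19, was narrower than 4000 bp, had its summit outside every protein-coding gene body of RefSeq GRCm38, and had that summit more than 1 kb and at most 100 kb from the nearest end of a protein-coding gene. Of 22948 peaks in the deposited list, 22618 were on these chromosomes and 3551 met the rule (15.7% of those, 95% Wilson interval 15.2 to 16.2%). They covered 3.64 Mb. Intervals given here cover counting error over peaks only.

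The list was called from ChIPmentation, a chromatin immunoprecipitation in which the Tn5 enzyme adds the sequencing adapters to chromatin while it is bound to the antibody. There were 4 H3K27ac libraries and 1 input library. The cells were CD45.2+ Lineage- Sca1+ Kit+ bone marrow cells, a sort that holds haematopoietic stem cells and multipotent progenitors, and all 5 libraries carry the genotype Mll3/4 deleted. The deposited file is named as the optimal overlap set over input, and it holds 1 set of values for the 4 libraries. Values of single libraries, their depths and a control genotype were not analysed here, so there is no replicate error, no test between groups, and no value below says what the deletion changed. How the deletion was made and the age of the mice are not given in the sources used here.

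Acetylation of histone H3 at lysine 27 marks active promoters and active enhancers, the latter often far from the genes they act on, and is deposited by the acetyltransferases CBP and p300. MLL3 (Kmt2c) and MLL4 (Kmt2d) belong to COMPASS-like complexes that methylate histone H3 at lysine 4, mainly at enhancers. Between genes, an acetylated region can be a distal enhancer or the start of a non-coding transcript, and a peak's nearest gene need not be its target.

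The labelled cell type was checked against markers, by whether a peak lay within 1 kb of a gene end or an intergenic peak had the gene as its nearest. In the stem and progenitor set, 4 of 10 markers had a peak at an end (37.2% of all genes did) and 4 had an intergenic peak (10.3% of all genes did). Kit, Flt3, Meis1 and Slamf1 were those with a peak at an end. In the longer stem and progenitor list described further on, 6 of 20 had a peak at an end, 30% beside the 37.2%. Kit and Ly6a, which encode the Kit and Sca1 proteins of the sort, as well as Cd34 and Meis1, had intergenic peaks. Hlf, Mecom and Procr, transcription factors and a receptor of stem cells, were among those with neither kind. All 7 B-cell markers had a peak at an end, and 5 had an intergenic peak as well. None of the 8 myeloid markers had a peak at an end, and 1, Csf3r, had intergenic peaks, 93070 and 94688 bp before its start. In the longer myeloid list described further on, 4 of 20 had acetylation at an end and 5 had intergenic peaks. Cd3d was the 1 T-cell marker of 5 with a peak at an end. The 4 erythroid and 3 megakaryocyte markers had neither kind. For the erythroid marker Gata1 this decides nothing, because the gene lies on the X chromosome, whose peaks were left out. The markers were chosen with earlier results of these data known, the difference between the sets was not tested, and neither was the part of committed cells in this sort.

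Several of the strongest intergenic peaks overlapped the start window of a long non-coding RNA (lncRNA), the stretch from 250 bases before to 50 after its start that the RefSeq promoter table of GRCm38.p6 gives. The 4 windows here are shown because their peaks were among the strongest of all intergenic peaks or lay near a stress gene. They are the starts of 4930578M01Rik (chr15:98985715-98986014, plus strand, 31.9 kb from Tuba1a, signal value 16.04), Snhg15 (chr11:6528711-6529010, minus strand, 6.58 kb from Myo1g, 15.1), Snhg8 (chr3:123508287-123508586, minus strand, 2.22 kb from Prss12, 12.5) and D730003I15Rik (chr1:191224204-191224503, plus strand, 41.3 kb from Atf3, 11.8). All are lncRNA genes, and the peaks' summits lie outside every protein-coding gene body. The start itself lay inside the peak for 3 of them, while at Snhg8 the peak overlapped the window but not the start. Capitals mark matches, on either strand, to any of 9 motifs. The letters searched were CCGGAAG for the ETS family, GGGCGG for the GC box bound by SP and KLF factors, and CCAAT for the box of that name. They were TGACGTCA for the cAMP response element (CRE), TGANTCA for AP-1, TGTGGT for RUNX factors and CAGGTG for the E-box of E proteins. TATAAA stood for the TATA box. The EBF1 motif was TCCC, then any 2 bases, then its reverse complement. Where matches touch or overlap, the capitals run together.
4930578M01Rik: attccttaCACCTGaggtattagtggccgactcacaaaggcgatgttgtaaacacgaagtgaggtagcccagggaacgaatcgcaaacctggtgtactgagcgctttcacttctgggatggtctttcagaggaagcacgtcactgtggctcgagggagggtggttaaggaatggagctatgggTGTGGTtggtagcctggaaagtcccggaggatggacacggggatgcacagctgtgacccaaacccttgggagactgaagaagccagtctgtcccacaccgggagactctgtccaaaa
Snhg15: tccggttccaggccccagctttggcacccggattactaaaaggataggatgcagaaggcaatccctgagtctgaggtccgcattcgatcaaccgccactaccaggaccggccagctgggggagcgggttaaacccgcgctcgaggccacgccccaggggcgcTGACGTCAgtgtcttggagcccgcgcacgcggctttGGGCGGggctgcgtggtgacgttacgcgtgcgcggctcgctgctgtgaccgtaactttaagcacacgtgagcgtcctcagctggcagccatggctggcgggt
Snhg8: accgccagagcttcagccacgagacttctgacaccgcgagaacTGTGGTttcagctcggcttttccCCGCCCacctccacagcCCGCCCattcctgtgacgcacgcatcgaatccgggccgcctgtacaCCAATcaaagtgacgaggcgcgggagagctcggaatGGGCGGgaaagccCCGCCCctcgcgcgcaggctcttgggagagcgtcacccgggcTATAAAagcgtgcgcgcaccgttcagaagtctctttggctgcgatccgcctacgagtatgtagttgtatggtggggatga
D730003I15Rik: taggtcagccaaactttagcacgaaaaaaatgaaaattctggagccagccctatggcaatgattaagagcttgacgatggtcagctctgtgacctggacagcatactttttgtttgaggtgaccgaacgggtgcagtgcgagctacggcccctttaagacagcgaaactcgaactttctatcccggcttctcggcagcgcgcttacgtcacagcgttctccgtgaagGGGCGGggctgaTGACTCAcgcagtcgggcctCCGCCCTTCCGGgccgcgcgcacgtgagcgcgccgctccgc
In the Snhg15 window the capitals are a CRE and a GC box. In the D730003I15Rik window they are GC boxes, an AP-1 motif and an ETS motif on the reverse strand that shares a base with a GC box. The 4930578M01Rik window had an E-box and a RUNX match but no GC box. Such matches are letters in a window and not evidence that a factor was bound.

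A second set of sequences comes from microRNA genes that lay inside intergenic peaks. Of 919 hairpins on chromosomes 1 to 19, 63 overlapped a peak of any class and 13 overlapped 9 of the intergenic peaks. Shown are mature forms of the hairpins best known in blood and development, with the seed (bases 2 to 8) in capitals. The 23 mature forms of these hairpins had 23 different seeds, so none shared one.
let-7i-5p: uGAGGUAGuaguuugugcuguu
miR-196b-5p: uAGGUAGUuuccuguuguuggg
miR-23a-3p: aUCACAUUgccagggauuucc
miR-27a-3p: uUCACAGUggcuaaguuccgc
miR-24-3p: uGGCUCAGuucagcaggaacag
miR-142a-5p: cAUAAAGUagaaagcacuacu
miR-142a-3p: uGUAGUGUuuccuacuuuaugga
miR-155-5p: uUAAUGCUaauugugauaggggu
The let-7i hairpin lay in a peak of signal value 8.79, 6.52 kb from Mon2. let-7 is a conserved family that represses growth and early developmental genes. The miR-196b hairpin lay in a peak of 7.44, 1.25 kb from Hoxa10 in the Hoxa cluster, which is active in blood progenitors. The miR-23a, miR-27a and miR-24-2 hairpins are transcribed together and shared a peak of 5.88, 2.75 kb from Zswim4. miR-142, a microRNA found in most blood cells, lay in a peak of 5.48, 1.77 kb from Tspoap1. The miR-155 hairpin, linked to lymphocyte activation, lay in a weaker peak of 2.97, 4.25 kb from Mrpl39.

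The signal value is the deposited file's measure of enrichment at a peak, read as a fold over background by the file's layout. Intergenic peaks had a median of 3.09 (interquartile range 2.66 to 4.05, lowest 1.79, highest 18.8). Peaks within 1 kb of a gene end had a median of 4.22, peaks inside gene bodies 2.90, and peaks more than 100 kb from any gene 2.87. These classes, like the intergenic peaks, hold only peaks narrower than 4000 bp. The 564 peaks of 4000 bp or wider form a class of their own, with a median of 7.19. Over all pairs of 1 intergenic peak and 1 peak of another class, the intergenic peak was the higher in 29.7% against gene ends, 56.1% against gene bodies and 57.1% against peaks beyond 100 kb. Intergenic peaks were thus lower than peaks at gene ends and close to those inside genes, with wide overlap between the classes. Their median width was 796 bp, beside 922.5 bp at gene ends, 795 bp inside genes and 767 bp beyond 100 kb.

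A q-value of at most 0.05 was met by 2745 intergenic peaks (77.3%, Wilson interval 75.9 to 78.65%), against 78.7% of all peaks on these chromosomes. The share was 92.4% at gene ends, 69.7% inside genes and 67.2% beyond 100 kb. At a −log10 q of at least 5, 999 intergenic peaks remained (28.1%, 26.7 to 29.6%), against 36.0% of all peaks. At that threshold gene ends kept 57.6%, gene bodies 22.2% and peaks beyond 100 kb 19.4%. The intergenic share was slightly below that of all peaks at the first threshold and further below it at the second. It was above the shares inside genes and beyond 100 kb at both.

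**Figure D1:**
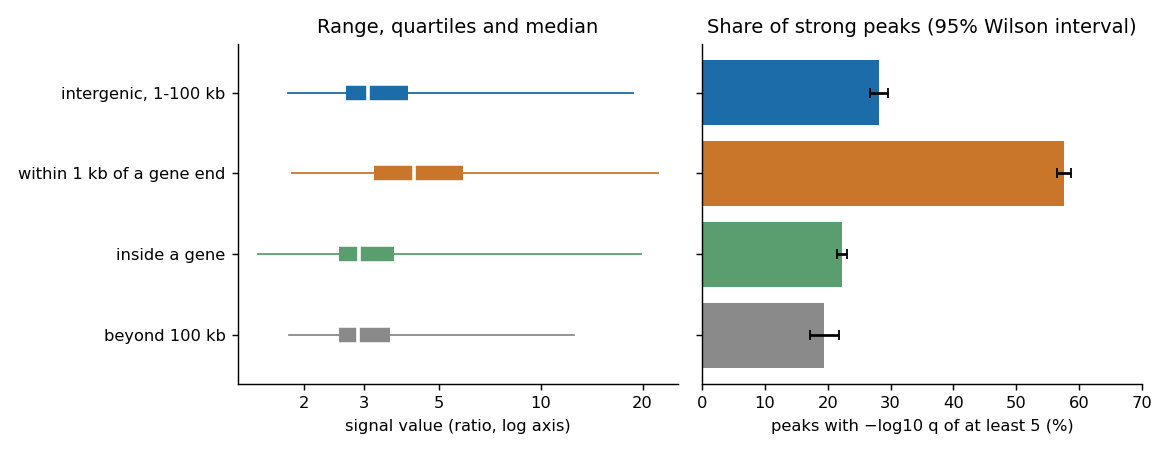
Signal values (left, fold over background, log axis; lines span the range, bars the quartiles, with a white gap at the median) and the share of peaks with a −log10 q of at least 5 (right, percent, with 95% Wilson intervals) for each class of peak on chromosomes 1 to 19. Intergenic peaks, with a median of 3.09, sit well below peaks at gene ends (4.22) and slightly above peaks inside genes (2.90).

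Intergenic peaks were denser close to genes. From 1 to 5 kb outside a gene end there were 638 peaks, or 6.01 per Mb of such sequence. The density was 5.03 per Mb from 5 to 10 kb, 4.98 from 10 to 25 kb, 4.88 from 25 to 50 kb and 3.83 from 50 to 100 kb. The nearest band was 1.57 times as dense as the farthest. Among peaks with a −log10 q of at least 5 the densities ran from 1.89 to 0.902 per Mb, a ratio of 2.10. The median signal value was between 3.12 and 3.21 in the 3 bands under 25 kb and was 3.02 and 2.97 in the next bands. Over the whole 736.0 Mb the density was 4.82 per Mb, beside 10.4 inside gene bodies and 1.70 beyond 100 kb. The median distance to a gene end was 19.8 kb (interquartile range 7.31 to 42.0 kb).

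**Figure D2:**
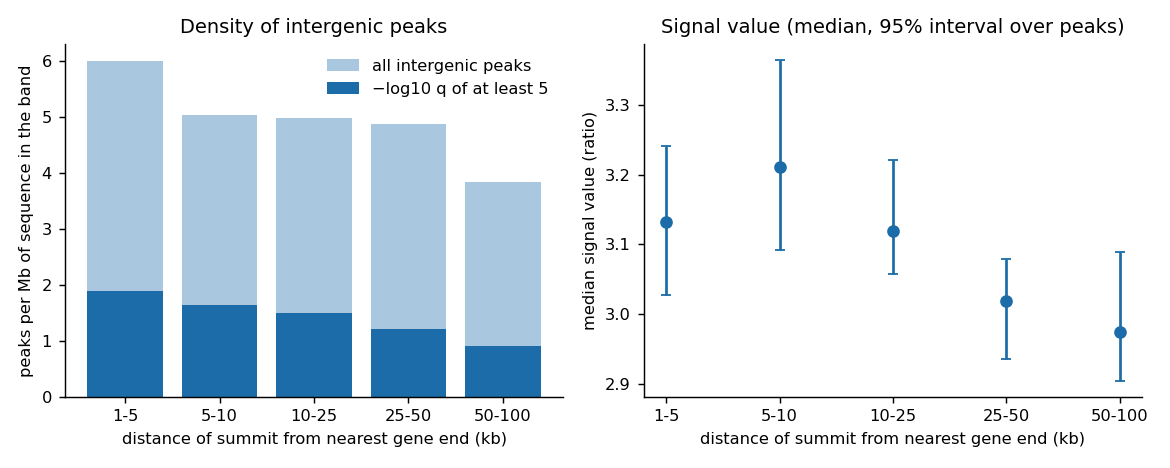
Density of intergenic peaks (left, peaks per Mb of sequence in the band; pale bars for all, dark bars in front for a −log10 q of at least 5) and their median signal value (right, with its 95% order-statistic interval) by distance of the summit from the nearest gene end. Density is highest in the nearest band (6.01 per Mb) and lowest in the farthest (3.83 per Mb).

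The signal values of peaks at the bounds of the rule were as follows. The 3 peaks nearest to the 1 kb bound on its intergenic side lay at Sp1 (7.41), Tifab (2.37) and Tnfrsf19 (2.54), and those just outside it at Rad54b (2.81), Sertad3 (5.63) and Usp1 (6.18). At 100 kb the last included were at Ifngr1 (2.54), Ufm1 (2.81) and Ado (3.33), and the first excluded at Galnt18 (2.47), Zfp36l2 (3.26) and Maf (2.60). At the width limit of 4000 bp the widest included were at Slc6a19 (6.27), Hoxa10 (7.44) and Elovl5 (5.14), and the narrowest excluded at Med13l (7.62), Copb1 (4.83) and Ulbp1 (7.74).

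Gene strand was known for 2769 intergenic peaks. Of these, 1420 lay before the start of their nearest gene (51.3%, Wilson interval 49.4 to 53.1%) and 1349 after its end. Per Mb of sequence on each side, 4.60 lay before starts and 5.13 after ends, a ratio of 0.896. Among peaks with a −log10 q of at least 5, an alternative added with the data known, the direction turned, with 1.39 per Mb before starts and 1.36 after ends, a ratio of 1.02. Median signal values were 3.15 before starts and 3.03 after ends. By chromosome the density ranged from 3.04 per Mb on chromosome 7 to 6.92 on chromosome 11, a ratio of 2.28.

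The genes nearest to intergenic peaks more often had acetylation at their own ends. For 2110 of them (59.4%, Wilson interval 57.8 to 61.0%) the nearest gene carried a non-intergenic peak within 1 kb of an end, against 37.2% of all 20665 genes. Counted by gene, this held for 1185 of the 2121 genes nearest to an intergenic peak (55.9%) and for 35.1% of the other genes. Where both flanking genes were acetylated in this way, the sequence between them held 12.7 intergenic peaks per Mb (1069 peaks in 84.3 Mb). With 1 such gene it held 6.20 per Mb and with none 2.00 per Mb. The median signal value was nearly level over these 3 kinds of interval, at 3.06, 3.09 and 3.03. The number of peaks per Mb differed 6.34-fold between the first and the last. These intervals also differed in median length, at 15.6, 21.4 and 24.7 kb, and the part of length was not tested.

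Intergenic peaks were unevenly spread. Of 15699 intervals between protein-coding genes, 1938 (12.3%) held at least 1, and 362 intervals with 3 or more held 43.5% of the peaks. The interval from Foxo1 to Cog6 on chromosome 3 held 20 peaks, with a median signal value of 3.42. Katnal1 to Hmgb1 held 18, Haao to Zfp36l2 held 17, Myb to Hbs1l held 13, and Ly6m to Ly6e held 12. Neighbouring peaks were often close together, and 34.6% of intergenic peaks had another peak of any class within 1 kb. Joined at 12 kb, they formed 2522 groups, of which 666 had at least 2 peaks and 35 had at least 5. The 666 became 339 when peaks within 1 kb were first merged, and 105 at a −log10 q of at least 5. The groups with the largest sum of signal value times width lay near Foxo1 (chr3:52396512-52417437, 8 peaks), Katnal1 (chr5:148948549-148980082, 11 peaks), Cdkn1b (chr6:134925741-134947131, 6 peaks) and Chd2 (chr7:73583465-73619609, 5 peaks), followed by the single wide peak near Tsga10ip (chr19:5405469-5408979).

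In all, 2121 of 20665 protein-coding genes (10.3%) were the nearest gene of an intergenic peak, and 317 of them had 3 or more. Foxo1 had the most, with 19. It encodes a forkhead transcription factor needed for early B-cell development. Zfp36l2, an RNA-binding protein that promotes mRNA decay, had 17, and Katnal1, related to the microtubule-severing katanin, had 14. Btg1, an antiproliferative gene expressed in lymphocytes, had 11 and B3gnt2, a glycosyltransferase, had 9. Another 11 genes had 8 each: Bcl11a, Enpep, Fos, Gfra2, Gm30733, Hmgb1, Ly6m, Myb, Sox4, Tmem121 and Zfp521. A peak at a gene end was present at 13 of these 16, beside 55.9% of all genes nearest to an intergenic peak, and Gfra2, Gm30733 and Ly6m had none. When intergenic peaks within 1 kb of each other were joined, an alternative chosen after the data were seen, Foxo1 kept 9 regions, Zfp36l2 7, Katnal1 5, Btg1 8 and B3gnt2 7. Tmem121 then had 8, level with Btg1, and Ly6m had 7. The others of these 11 genes, among them Fos, Myb and Gm30733, also fell below 8 regions. Keeping only peaks with a q of at most 0.05, also added with the data known, left Katnal1 with 9, B3gnt2 and Bcl11a with 3 each, and Gfra2 and Zfp521 with 5 each, while Foxo1 kept 17 and Zfp36l2 14.

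At Foxo1, 15 of the 19 peaks lay after the gene's end. The highest of all, 7.54, was 94672 bp past the end, and a block from chr3:52396512 to 52417437 included peaks of 5.72, 5.25 and 5.87. Before the start, the highest was 6.37 at 69926 bp. The median at Foxo1 was 3.21, close to that of all intergenic peaks, while their number was the highest of any gene. At Katnal1, 11 of the 14 peaks lay before the start, and the highest, 8.60, was 48643 bp away and inside the lncRNA gene Gm15411. The 8 peaks nearest to the neighbouring gene Hmgb1, which encodes a chromatin protein, reached 6.92, and 7 of them lay after its end, facing Katnal1.

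Myb encodes a transcription factor of blood progenitors, and the sequence between it and Hbs1l is known to hold its enhancers. All 8 peaks nearest to Myb lay before its start, between 25366 and 65669 bp away. Several lay within 1 kb of a neighbour, so fewer separate regions remain when such peaks are joined. Their signal values ran from 2.26 to 3.70 with a median of 2.95, and none reached a −log10 q of 5. The other 5 peaks of that interval were nearer to Hbs1l, and 3 of them, of 4.74, 5.19 and 5.17, did reach it. At Fos, part of the AP-1 transcription factor, the 8 peaks had a median of 4.57 and a highest value of 8.72, at 18012 bp before the start. A peak of 7.84 lay 8526 bp after its end. Lef1, a factor of early lymphoid cells, had 4 peaks, all before its start, of 7.01, 4.51, 5.14 and 4.37. At Lef1 all 4 exceeded the highest of the 8 nearest to Myb, and 1 of them exceeded the 5.19 of the Hbs1l side.

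Zfp36l2 on chromosome 17 and Btg1 on chromosome 10 had many peaks of modest height. The 17 at Zfp36l2 ran from 1.88 to 4.31, and the 11 at Btg1 from 2.26 to 3.98, spread over both sides of the gene. At B3gnt2, 8 of the 9 peaks lay after the end, none of them above 3.43, and the highest of the locus, 5.91, was 11436 bp before the start. The 8 peaks nearest to Enpep, an aminopeptidase of early B cells, all lay before its start and reached 7.41, at 60713 bp. Tmem121 lies beside the immunoglobulin heavy chain locus. All 8 of its peaks lay after its end, and the highest, 5.998, was 29198 bp away at chr12:113218207-113219899. At Cdkn1b, which encodes the cell cycle inhibitor p27, the block of 6 peaks included values of 8.42, 5.85 and 7.07 in the 3 peaks nearest to the gene and 2.90, 2.97 and 3.12 in the others. At Chd2 the block of 5 peaks held 2 of the highest intergenic values, 10.7 and 10.5, at 77304 and 76413 bp from the gene.

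**Figure D3:**
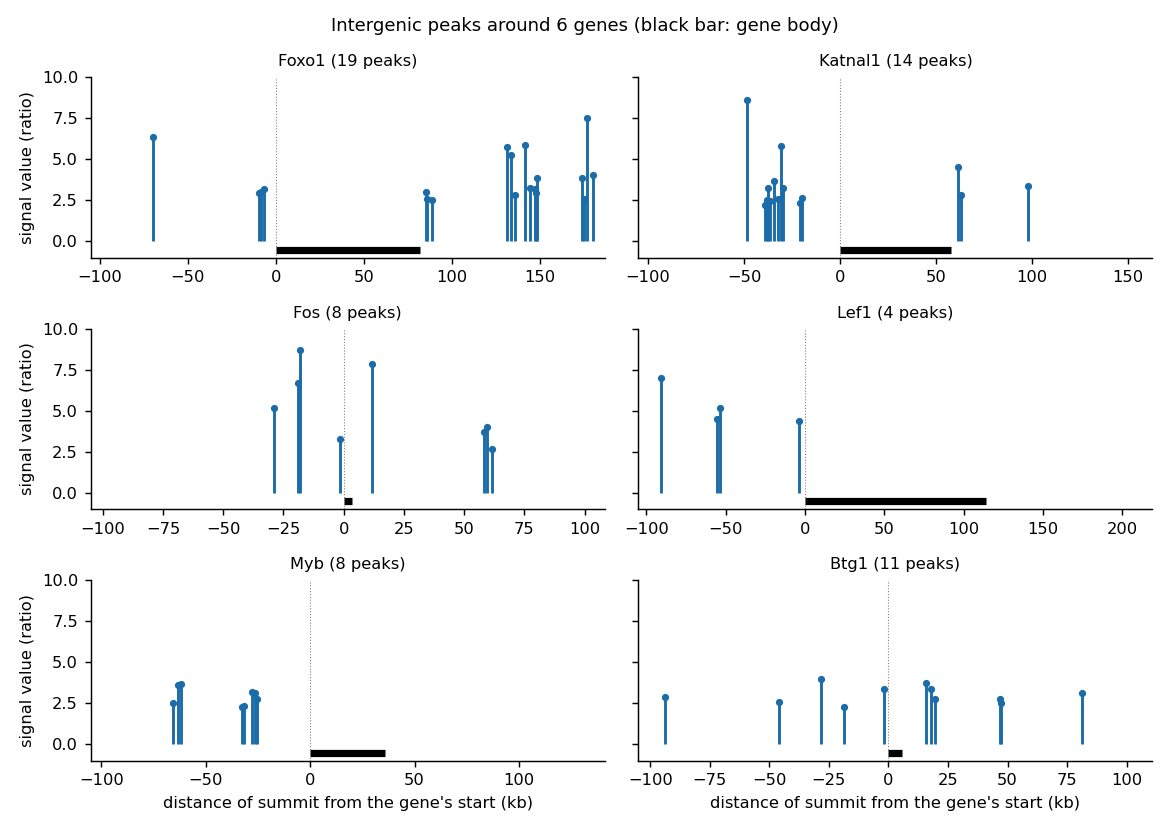
Signal value (fold over background) of each intergenic peak against the distance of its summit from the gene's start (kb) for Foxo1, Katnal1, Fos, Lef1, Myb and Btg1. The black bar is the gene body, and peaks inside it or within 1 kb of its ends are not drawn. Foxo1 has most of its 19 peaks after its end, and Myb has all 8 before its start.

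Gene lists were read against the 10.3% of all genes that are nearest to an intergenic peak, and against 4.82 peaks per Mb of sequence nearest to any gene. The lists hold 20 genes each before genes off chromosomes 1 to 19 are left out, and they get no test. In the B-cell list, 10 of 20 genes had intergenic peaks, 37 in all, at 47.0 per Mb. Without Foxo1 the density was 29.7 per Mb. Counting every gene within 100 kb of a peak, 16 of the 20 had one, beside 29.0% of all genes. Ebf1, a pioneer transcription factor of the B lineage, had 5 peaks with a highest value of 6.64, and Bach2, a repressor that acts in B cells, had 4 with a highest value of 4.44. Il7r, the receptor that carries the IL-7 survival signal, and Dntt, which adds bases at immunoglobulin joints, had 2 each. Blnk (4.28), Cd79b (3.88), Igll1 (3.58) and Cd79a (3.15), which encode parts of the B-cell receptor, its surrogate or its signalling, were among the genes with 1 each. Rag1, Rag2, Pax5, Cd22, Pou2af1, Ikzf3, Irf4, Blk, Vpreb1 and Ms4a1 had none, although 6 of these, Rag1, Rag2, Pax5, Pou2af1, Irf4 and Vpreb1, had a peak at an end. All 10 genes with an intergenic peak also had a peak at an end. For all genes these shares were 35.1% without and 55.9% with an intergenic peak.

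In the early lymphoid list, 9 of 20 genes had 37 peaks, at 19.3 per Mb. Sox4, Bcl11a and Myb, transcription factors of lymphoid or multipotent progenitors, had 8 each, and Lef1 had 4. At Sox4 the highest peak was 7.13, 38124 bp before the start, whereas the 8 at Bcl11a did not exceed 2.87. Tcf12, an E protein, had 3, Ikzf1 and Ccr9 had 2 each, and Id3 and Satb1 had 1 each. In the T-cell list, 1 gene of 20, Cd2, had peaks. The 18 autosomal genes of the erythroid and megakaryocyte list and the 20 genes of the non-blood list had none. These low counts rest on giving each peak to its nearest gene. With every gene within 100 kb counted, 6 of the 20 T-cell genes, 5 of the 18 erythroid and megakaryocyte genes and 3 of the 20 non-blood genes had a peak, beside 29.0% of all genes.

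The stem and progenitor list had 5 of 20 genes with 8 peaks, at 6.09 per Mb, and 4.22 per Mb without Runx1, which is below the density over all genes. Runx1, a factor needed for blood stem cells to form, had 3, with signal values of 3.33, 2.34 and 2.48, all before its start. Kit, the receptor used in the sort, had 2, of 2.26 and 2.78, and Meis1, Hoxa10 and Fli1 had 1 each. Of these 8 peaks, 1, at Hoxa10, reached a −log10 q of 5. The 15 others had none, among them Gfi1b, Lmo2, Procr, Mecom, Tek, Tal1, Prdm16, Hoxa9, Gata2, Lyl1, Hlf, Hoxb5, Mycn and Erg. With every gene within 100 kb counted, 10 of the 20 had a peak, beside 29.0% of all genes. Among those just named, Erg then had 3, Lyl1 2, and Procr and Hoxa9 1 each. In the myeloid list 5 of 20 genes had 14 peaks, at 16.04 per Mb. Klf4, a factor of monocyte development, had 5 with a highest value of 3.95. Cebpb, which drives granulocyte production under stress, had 4, and its highest, 8.10, lay 87311 bp past its end. Irf8 and Csf3r had 2 each and Spi1 had 1. The 2 at Csf3r, 93070 and 94688 bp before its start, lay within 1 kb of each other. Mpo, Elane, Prtn3 and Ctsg, which encode granule proteins, had none, nor did Cebpa, Cebpd, Cebpe, Gfi1, Csf1r, Csf2ra, Fcgr3, Cd33, Itgam, Lyz2 and Ms4a3. Counting every gene within 100 kb, 10 of the 20 myeloid genes had a peak.

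The immediate-early and stress list, genes that cells switch on quickly during handling or stimulation, had the largest share, 14 of 20 genes, with 41 peaks at 31.3 per Mb. Fos had 8, Dusp5, a MAP kinase phosphatase, had 6 and Jun had 5. Atf3, Klf2 and Egr2 had 3 each, and the highest peak of the list, 11.8, was the one near Atf3 whose lncRNA start window is printed above. The part of cell handling in this was not tested. Housekeeping genes had 5 of 18 with peaks, 12 in all, also at 31.3 per Mb, with the highest value near Ywhaz (14.2). Among chromatin regulators 2 of 19 had peaks, Kmt2c with 2 and Ep300, which encodes p300, with 1. With all genes within 100 kb counted, 11 of 18 housekeeping genes and 8 of 19 chromatin regulators had a peak. Kmt2c encodes MLL3 itself, and the peaks near it say nothing of whether its product was present.

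**Figure D4:**
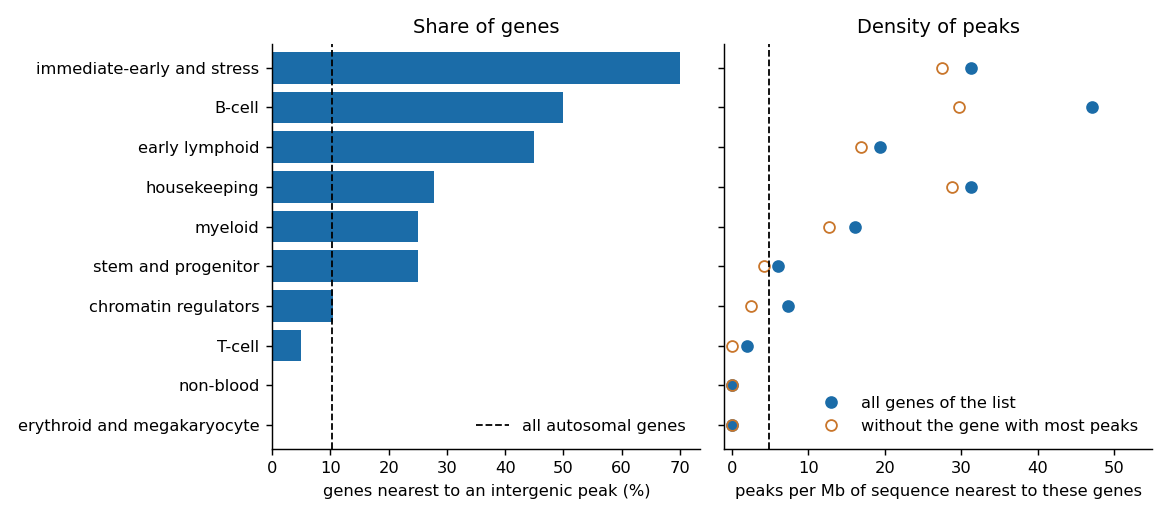
Share of each list's autosomal genes that are nearest to an intergenic peak (left, percent) and the density of intergenic peaks in the sequence nearest to them (right, peaks per Mb, with and without the gene that has most). Dashed lines give all autosomal genes (10.3% and 4.82 per Mb), and the immediate-early list has the largest share, 14 of 20 genes. The amount of sequence nearest to each gene differed between lists.

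The strongest intergenic peaks had their summits at or near non-coding genes in many cases. The highest of the 15, 18.8, lay at chr3:95950037-95952813, 4.17 kb past the end of Anp32e, a histone chaperone for H2A.Z. The next were near Tuba1a, Tsga10ip and Adam6b (15.4). The Adam6b peak (chr12:113421275-113424372) is inside the immunoglobulin heavy chain locus, Igh. Others lay near Myo1g, a myosin of blood cells, and near Chd2, a chromatin remodeller, where the summit was in the lncRNA gene Chaserr, which is known to restrain Chd2. Ywhaz, Plcl2, Fbxw2, Pom121l2, Lmntd1, Zfp958, Tacc1 and Sfi1 were also among them, from 14.2 down to 12.6. Of the 15, 9 had a non-coding gene at the summit and 4 overlapped a lncRNA start window, as did 190 of all intergenic peaks (5.35%).

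Over all intergenic peaks, 1082 (30.5%, Wilson interval 29.0 to 32.0%) had the summit inside or within 1 kb of a non-coding gene. Of these, 936 were at lncRNA genes, 58 at pseudogenes, 23 at transcribed pseudogenes and 6 at receptor gene segments. The share of intergenic sequence in or near such genes was not computed, so whether 30.5% is above it is not known. The median signal value of the 1082 was 3.27, against 3.03 for the others. It was 6.64 for the 24 peaks at snRNA genes, 5.20 for the 14 at snoRNA genes and 3.93 for the 44 at tRNA genes, which are short and heavily transcribed. Many such genes come in near-identical copies, so reads there may be split between them. At signal values of 6 or more, 98 different non-coding genes had such a summit in their body. Beyond Snhg15, Chaserr, D730003I15Rik and the Igh locus, the highest were 4930481A15Rik near Tsga10ip (15.98), Gm6410 (13.0), Gm39143 (12.7), C920006O11Rik (12.2), Fbxl12os (11.7), 5031425E22Rik near Kmt2e (11.6), Dleu2 (10.5), Zmiz1os1 (10.4) and Gm34999 (10.2). The share overlapping a lncRNA start window went from 2.02% in the weakest group by signal value to 27.9% among the 43 peaks above 10, of which 12 did. This share counts overlap of the whole peak, so it can depend on width. Median width was 1555 bp at a −log10 q of at least 5, beside 796 bp for all intergenic peaks. The part of width was not tested.

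**Figure D5:**
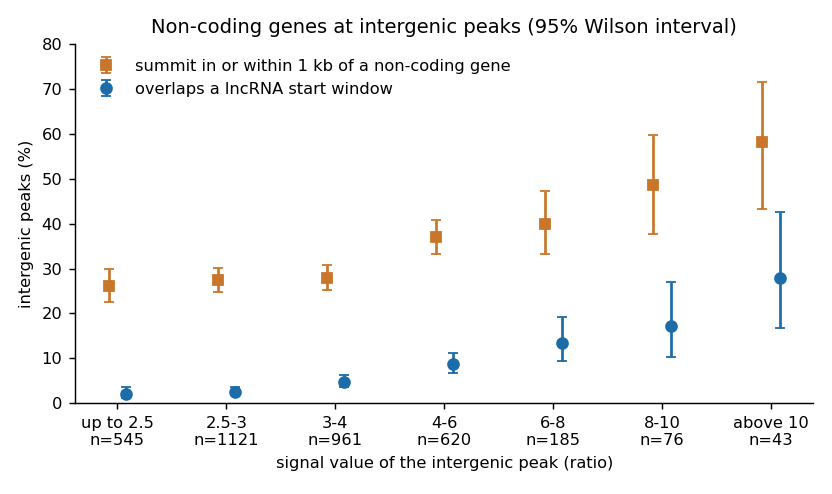
Share of intergenic peaks (percent, with 95% Wilson intervals) with a non-coding gene at the summit and overlapping a lncRNA start window, by signal value. Non-coding here means any gene not classed as protein-coding. The second share ranged from 2.02% in the weakest group to 27.9% at signal values above 10. Peak width was not held equal across the groups.

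In all, 195 lncRNA genes had a start window that overlapped an intergenic peak. For 190 of them the start itself met the same distance rule as the peaks. They were 4.58% of the 4145 lncRNA genes whose start met that rule. The windows of these 190 were richer in CpG than those at lncRNA starts in the same kind of place without a peak. The median CpG count per 300 bases was 7 in the former, 3 in 3930 windows of the latter and 22 at 3782 protein-coding starts with a peak. CpG-rich windows, with an observed to expected ratio over 0.6 and GC over 50%, made up 27.4%, 3.16% and 77.3%. Over all 25748 promoters the median CpG count was also 7 and the CpG-rich share was 34.04%, above that at intergenic peaks. A GC box was present in 28.9% of the windows that overlapped an intergenic peak, 9.92% of those without a peak and 65.0% at protein-coding starts with a peak, beside 36.0% of all promoters. For the ETS motif the shares were 12.1%, 2.90%, 25.8% and 9.26%, and for AP-1 14.2%, 10.7%, 4.07% and 7.97%. The CRE was present in 2.63%, 0.840%, 5.76% and 1.82%. For the RUNX letters they were 18.9%, 22.0%, 11.2% and 16.9%, for CCAAT 28.4%, 36.8%, 37.6% and 37.7%, and for the E-box 16.8%, 21.2%, 15.02% and 20.3%. The EBF1 motif was in 0.526%, 0.941%, 0.767% and 0.917% of windows, and TATAAA in 14.7%, 16.7%, 6.82% and 14.2%.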

How the data were processed

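The authors deposited 1 peak list for the 4 H3K27ac libraries and the input. Per the submitters' processing notes, BWA, MACS2 and mm10 were used, with no versions; how the libraries were combined is not given in the sources used here. The file has no header, so by the narrowPeak layout the deposited columns were read as a score, a signal value (a fold, or ratio, over background), −log10 p-values and q-values, and the summit offset. Library depth is unknown, so precision is limited to counting error over peaks.

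Peaks were placed on the RefSeq GRCm38.p6 gene table by summit with Python 3.11.15, pandas 2.3.3 and scipy 1.17.1. Gene strand came from the promoter table and was known for 79.6% of genes. Assignment to genes was tested on simulated data. Results on some named genes are not reported here. No genome was used, so peak sequences were not read. Members, lists, markers and motifs were chosen with earlier results of these data known. Named are the 15 strongest intergenic peaks, the 10 genes with most (all ties kept), the top 5 clusters and intervals, genes of the B-cell, stem and myeloid lists with 3 or more peaks or none, non-coding genes at strong summits, and the peaks nearest each bound. Any further gene named is a list member or an example picked with its values known. Alternatives covered stricter q thresholds, all annotated genes, other distance and width bounds, other gene assignments and joining distances.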

Additional observations from a re-analysis of the deposited data

How the results depend on the processing

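Of 75 alternative values, 31 stayed within the interval of the reported value (counts within 1.5 times) and 44 moved. With q at most 0.05 the median signal value was 3.398, width 976 bp and distance 18.8 kb, and 56.8% of nearest genes had a peak at an end (35.4% of all genes). With −log10 q of at least 5, 999 peaks remained, with medians of 5.02, 1555 bp and 16.2 kb. The share with a peak at an end was then 47.7% (24.8% of all genes), 777 intervals held a peak, 105 clusters had 2 or more, 38.0% lay at non-coding genes and 54.5% lay before starts. With all annotated genes the medians were 2.97, 766 bp and 10.5 kb, q at most 0.05 was met by 73.7%, and 34.4% of nearest genes had a peak at an end (21.5% of all genes). Chosen after seeing the data, −log10 q of at least 5 turned the ratio of the density before starts to that after ends to 1.02. With q at most 0.05, chosen likewise, 5 of the 16 leading genes lost over a factor of 1.5 in count. A bound of 2.5 kb gave a median distance of 22.6 kb. Any overlap with a non-coding gene gave 27.5%. Joining peaks within 1 kb, chosen after seeing the data, gave 339 clusters, and 9, 7 and 5 regions at Foxo1, Zfp36l2 and Katnal1. Counting all genes within 100 kb (29.0% of all genes), list counts were 16 for B-cell, 10 for stem, 10 for myeloid, 6 for T-cell, 5 for erythroid, 11 for housekeeping, 3 for non-blood and 8 for chromatin genes. With −log10 q of at least 5 (3.93% of all genes) they were 6 for B-cell, 1 for stem, 4 for early lymphoid, 9 for immediate-early, 3 for housekeeping and 1 for chromatin genes. The cause of these shifts was not tested. No paired analysis was possible because per-library values were not analysed here, and for the same reason no library was left out in turn. The planned comparison of sequence around summits was not run.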

Other observations

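The antigen receptor loci differ in length, so their peaks are given per Mb. The immunoglobulin heavy chain locus (2.75 Mb) held 122 peaks of all classes, or 44.3 per Mb, of which 5 were intergenic by the rule used here, with a highest signal value of 15.4. The kappa locus (3.17 Mb) held 8 peaks, or 2.52 per Mb, with 1 intergenic. The lambda locus (0.199 Mb) held 0. The T-cell receptor alpha/delta, beta and gamma loci (1.80, 0.667 and 0.174 Mb) held 1, 2 and 1 peaks. Per Mb this was 0.557, 3.00 and 5.74, the last 2 above kappa but resting on 2 and 1 peaks. All of these peaks were intergenic, with signal values of at most 3.64. For comparison, gene bodies held 10.4 peaks per Mb. Unlike the locus counts, that value leaves out peaks at gene ends and those of 4000 bp or wider.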
